A study of Mus musculus with 4 samples.

Results

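The genes described here encode the complexes of the mitochondrial respiratory chain and ATP synthase, together with a few assembly factors that share their names. They were chosen by symbol alone: every gene whose symbol on the array begins with Nduf, Uqcr, Atp5 or Cox4 to Cox8, and the genes Sdha, Sdhb, Sdhc, Sdhd and Cyc1. The array platform named 79 such genes among 9930 named genes. Of these, 69 had a value on all 4 arrays, out of 6327 genes measured on all 4. The arrays set total RNA of NIH3T3 cells transfected with Erbb2, a line labelled as overexpressing this receptor tyrosine kinase gene, against total RNA of untransfected NIH3T3 cells, labelled as having normal Erbb2 expression. NIH3T3 cells are an established line of mouse embryonic fibroblasts. On arrays 1 and 2 the transfected sample was labelled with Cy5, and the dyes were swapped on arrays 3 and 4. The arrays are described as technical replicates, so there was 1 sample per line, and errors and p-values cover the spread between hybridisations, not between cultures or transfections. The sources used here do not say which promoter drives the transgene or whether the line was a clone or a pool. Erbb2 itself had no named probe, so its level in the transfected line was not analysed here.

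The respiratory chain passes electrons from NADH and succinate to oxygen through complexes I to IV in the inner mitochondrial membrane, and complexes I, III and IV pump protons as they do so. ATP synthase, also called complex V, uses the return of those protons to make ATP. Most subunits are encoded in the nucleus and must be imported, while a small core of complexes I, III, IV and V is encoded by mitochondrial DNA. Complex II, succinate dehydrogenase, is wholly nuclear encoded and also works in the tricarboxylic acid cycle. Oxidative phosphorylation is often discussed beside glycolysis in cells transformed by oncogenes.

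Values are deposited log2 ratios, and a value above 0 is read as a higher level in the transfected line. That direction is likely but not stated in the sources, and all signs would turn together if it were wrong. The arrays were not centred: the median over all 6327 genes was 0.095, -0.013, -0.14 and -0.16 on arrays 1 to 4, and -0.082 for the mean of the 4 arrays. Of 20355 rows, 94.6%, 81.0%, 76.8% and 89.4% had a value on arrays 1 to 4. Arrays 2 to 4 were read 3 or 4 rows above array 1 in the lower part of the table, and this offset had been chosen because it makes array 1 correlate with the others. Agreement between array 1 and the other arrays is therefore no independent support for a value. Of the 69 genes, 22 had a probe in the first 6000 rows, where no offset was used, and 12 of those had no other probe. Ratios hold no level, so the cell type could not be checked by presence of markers. Of the fibroblast markers 7 of 11 were measured, with a median of 0.24 and a range from -4.91 to 0.89, and the collagen genes Col1a1 and Col1a2 were the ones at an unadjusted p under 0.05 (limma). Leukocyte markers had a median of -0.22 (3 of 9 measured), epithelial markers 0.35 (3 of 7) and muscle markers -0.23 (4 of 8). In these lists Lyz2 (mean -1.17), Myh1 (-2.67) and Cldn3 (0.86) had an unadjusted p under 0.05, and no marker passed after adjustment. The part of other cell types in the results was not tested.

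As background to the genes with a single sign on all 4 arrays, described below, the stretch of 250 bases before the annotated start was read for letters bound by factors known to regulate respiratory genes. Sequences and positions are those of RefSeq on GRCm38.p6, and 65 of the 79 genes had an entry. The letters searched, on both strands, were GCGCATG (NRF1), CCGGAAG (GABPA and other ETS factors), AAGATGG (YY1) and GGGCGG (SP1). The NRF1 letters, which are part of its site, occurred before 7 of the 65 genes (10.8%) and before 3.68% of all 27025 genes with an entry. A longer form of the NRF1 site was searched first and occurred before 10 genes (15.4%) and 4.23% of all; the shorter letters were chosen after these counts were seen, and the forms mark partly different genes, with Atp5h held by the longer and Sdhb by the shorter one. The ETS letters occurred before 12 genes (18.5%) and 7.83% of all, the YY1 letters before 1 gene (1.54%) and 5.18% of all, and the SP1 letters before 25 genes (38.5%) and 35.4% of all. Such matches describe letters, not bound sites. Bases after the start were not searched, so a low share, as for YY1, holds only for the stretch before it. The lines below give the single-sign genes that held at least 1 match, with the matches in capitals: Atp5h and Sdhb, which lay below 0 on every array, and Atp5b and Ndufa10, which lay above 0 on every array as deposited but on both sides of the array medians once the arrays were centred. They read 5′ to 3′ on the strand of the gene and lie at chr11:115419920-115420169 (minus strand), chr4:140961021-140961270 (plus), chr10:128083057-128083306 (plus) and chr1:92473759-92474008 (minus).
Atp5h: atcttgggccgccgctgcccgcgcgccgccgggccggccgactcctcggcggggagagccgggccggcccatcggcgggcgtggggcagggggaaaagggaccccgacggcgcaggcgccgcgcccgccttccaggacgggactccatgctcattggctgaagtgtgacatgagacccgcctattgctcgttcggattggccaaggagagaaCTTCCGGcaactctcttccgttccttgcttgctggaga
Sdhb: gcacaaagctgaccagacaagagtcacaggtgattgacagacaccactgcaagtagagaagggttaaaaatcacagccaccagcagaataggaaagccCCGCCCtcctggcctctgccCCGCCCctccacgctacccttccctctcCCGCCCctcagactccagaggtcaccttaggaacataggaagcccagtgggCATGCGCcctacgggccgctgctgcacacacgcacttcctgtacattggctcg
Atp5b: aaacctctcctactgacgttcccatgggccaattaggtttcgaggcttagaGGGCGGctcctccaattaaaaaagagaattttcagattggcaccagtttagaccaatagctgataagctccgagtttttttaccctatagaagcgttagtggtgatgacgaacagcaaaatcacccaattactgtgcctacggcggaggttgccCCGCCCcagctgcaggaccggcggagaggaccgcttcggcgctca
Ndufa10: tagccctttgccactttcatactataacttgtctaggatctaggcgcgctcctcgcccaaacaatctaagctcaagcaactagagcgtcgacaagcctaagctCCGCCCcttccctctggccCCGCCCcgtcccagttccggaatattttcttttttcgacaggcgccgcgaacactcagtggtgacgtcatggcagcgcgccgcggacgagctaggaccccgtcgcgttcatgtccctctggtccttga
Atp5h held 1 ETS match, Sdhb 1 NRF1 match and 3 SP1 matches, and Atp5b and Ndufa10 2 SP1 matches each. The windows of Ndufv1, Ndufs8, Ndufa9, Uqcrc1 and Uqcrfs1 held none of these letters. The single-sign genes Cox4i1 and Sdhc had no entry and were not searched. No match shown overlaps another. Matches thus occurred on both sides of 0.

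Taken over all complexes, the respiratory genes had ratios near 0. The median of the 69 means was 0.011, against -0.082 over all genes, a distance of 0.093. On single arrays the median of the 69 genes was 0.23, 0.24, 0.069 and -0.48, so array 4 lay on the other side of 0 from the other 3. Means ran from -0.95 (Cox6b2) to 1.49 (Atp5md), with 33 genes below 0 and 36 above. Over all 6327 genes 3550 means were below 0 and 2777 above, and the counts by complex are to be read against these. Only Atp5md and Sdhd had a mean beyond 1 in size, which is 2.90% of the genes against 11.6% of all genes, and both varied by more than their mean between arrays.

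**Figure D1:**
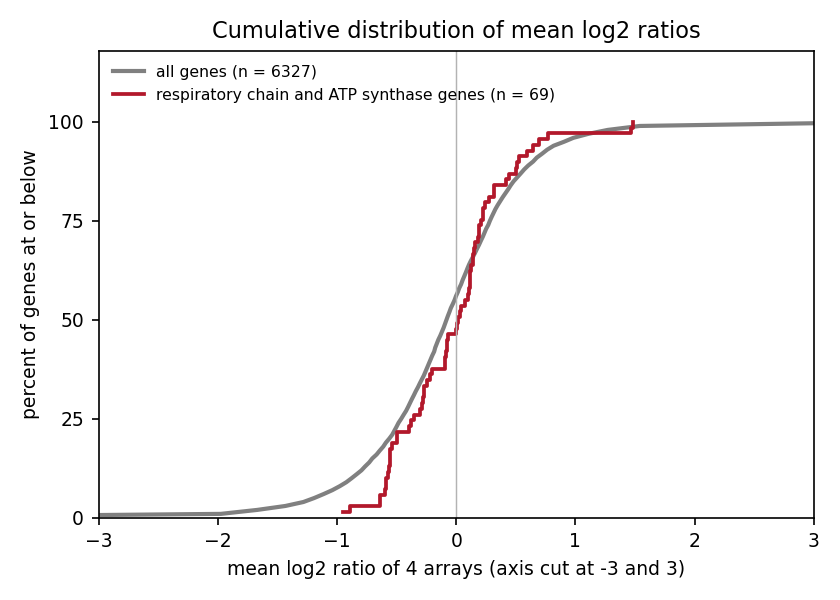
Cumulative percent of genes (vertical axis) by mean log2 ratio of 4 arrays (horizontal axis), for the 69 respiratory chain and ATP synthase genes in red and all 6327 genes in grey. The red line starts at -0.95, where the grey line has left a tail of lower genes behind, and both lines cross 50% near 0, at 0.011 and -0.082.

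The fit with limma, over all 6327 genes and with a term for dye orientation, called 0 of the 69 genes at a Benjamini-Hochberg adjusted p under 0.05. It called 0.00% of all genes, with a smallest adjusted p of 0.105 over the table and of 0.382 among the respiratory genes. At an unadjusted p under 0.05 there was 1 respiratory gene, Ndufv1, which was lower (1.45% of 69), and 0 were higher. Over all genes limma had 7.49% lower and 4.05% higher at that level. The share was thus below the background, but a missed threshold does not show that a gene kept its level. Limma's 95% interval lay wholly between -1 and 1 for 21 of the 69 genes (30.4%, against 22.7% of all genes). For the other 48 genes the arrays do not bound the ratio that closely. A single sign on all 4 arrays was found for 7 genes below 0 (10.1%, background 13.0%) and 4 above 0 (5.80%, background 9.58%). These counts depend on the arrays' constants. With each array centred on its median, 7 genes lay below the median on every array (10.1%, background 11.3%) and 5 above it (7.25%, background 10.9%). Ndufa9, Ndufa10 and Atp5b then had values on both sides, while Atp5o joined the lower genes and Cox5b, Ndufb11 and Ndufc2 the higher ones.

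**Figure D2:**
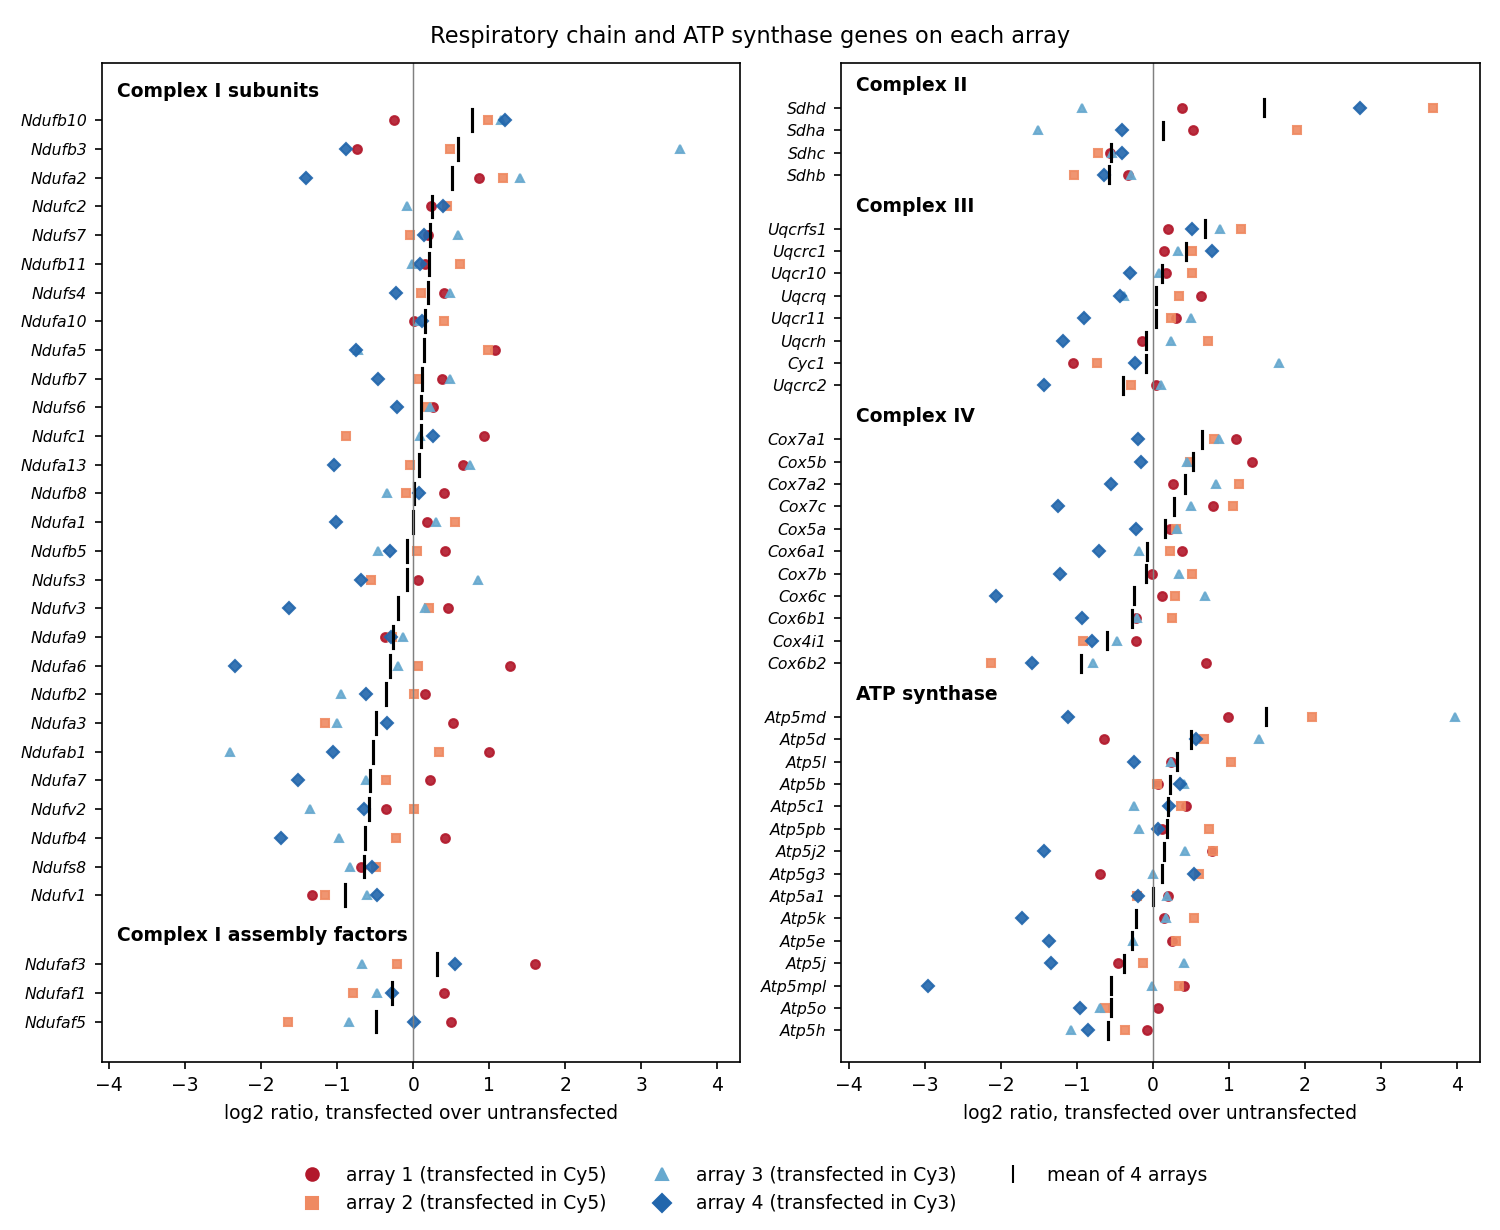
Log2 ratio (horizontal axis) of each of the 69 genes (rows, ordered by complex and mean) on each of 4 arrays, with black bars for the mean. Points of array 4 (dark blue diamonds) lie furthest left in 35 rows, among them 9 of the 11 genes of complex IV.

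Complex I, NADH dehydrogenase, had 28 measured subunits of 31 named. Its median was 0.007, with 13 means below 0 and 15 above. The 5 measured core subunits, which carry the flavin and iron-sulphur clusters or form the path to ubiquinone and are conserved from bacteria, had a median of -0.59, and 4 of them lay below 0. The 23 accessory subunits had a median of 0.077, with 9 below 0 and 14 above. This split was made after the values were seen and was not tested.

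Ndufv1, the flavin-binding subunit where NADH is oxidised, had log2 ratios of -1.33, -1.16, -0.61 and -0.48 on arrays 1 to 4. All 4 lie below 0, and both arrays with the transfected sample in Cy5 are lower than both with it in Cy3. The mean was -0.90 ± 0.41 (SD, n = 4 arrays), 1.86-fold lower. Limma gave a 95% interval from -1.59 to -0.20, an unadjusted p of 0.021 and an adjusted p of 0.382. Without any 1 array, limma's unadjusted p lay between 0.0509 and 0.0901. Ndufs8, an iron-sulphur subunit on the path to ubiquinone, had -0.69, -0.49, -0.83 and -0.55. These values lie close together, with a mean of -0.64 ± 0.15 (SD, n = 4 arrays) and an interval from -1.35 to 0.063 (limma, adjusted p = 0.47). Ndufv2, the partner of Ndufv1 in the NADH-oxidising arm, had a mean of -0.59 with 3 arrays below 0 and array 2 at 0.013. The other core subunits were Ndufs3, with a mean of -0.079 and mixed signs, and Ndufs7, with a mean of 0.22. The core subunit gene Ndufs1 had 3 values, all above 0 (1.13, 2.86 and 0.51 on arrays 1, 3 and 4), and was not in the fit over 4 arrays.

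Among the accessory subunits 2 had a single sign. Ndufa9, which sits near the junction of both arms of the complex, had -0.37, -0.28, -0.13 and -0.29, with a mean of -0.27 ± 0.10 (SD, n = 4 arrays). Ndufa10 had 0.014, 0.40, 0.069 and 0.12, with a mean of 0.15 ± 0.17, and array 1 stood almost at 0. Its 2 probes had means of -0.005 and 0.30, so the sign rests on their average. The subunit with the highest mean, Ndufb10 of the membrane arm, had -0.25 on array 1 and 0.99, 1.15 and 1.20 on arrays 2 to 4. Its mean was 0.77 ± 0.69 (limma, adjusted p = 0.47), and array 1 stands apart from the other 3. Ndufb3 had the widest values, from -0.89 on array 4 to 3.51 on array 3. Ndufa5 and Ndufab1, the mitochondrial acyl carrier protein, differed by dye orientation: Ndufa5 was near 1.0 on both Cy5 arrays (1.07 and 0.98) and below 0 on both Cy3 arrays (-0.73 and -0.76). Its 2 probes disagreed. The values 0.042, 0.59, 1.56 and -1.57 of the first did not divide by orientation. The other had 2.11, 1.38, -3.02 and 0.048, so both Cy5 arrays lay above both Cy3 arrays. The split was thus seen in 1 of the 2 probes. The dye term had an unadjusted p under 0.05 for 3 of the 69 genes (4.35%, background 5.31%), namely Ndufa5, Ndufab1 and Sdha.

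The 3 measured assembly factors of complex I, which help build it and are not part of it, had mixed signs. Ndufaf5 had 0.50, -1.64, -0.84 and 0.009. Ndufaf3 had 1.60, -0.22, -0.67 and 0.56. Leaving out array 2 turned the fitted mean of Ndufaf5 from -0.49 to 0.042. For Ndufaf3, leaving out array 1 turned it from 0.32 to -0.14. The fitted mean weighs both dye orientations equally, so an array left alone in its orientation counts as much as both others together. The turn for Ndufaf5 rests on that weight of array 1. Ndufaf1 had a mean of -0.29 with 3 arrays below 0. Ndufaf7 was below 0 on the 3 arrays that measured it (-1.60, -1.05 and -0.32).

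Complex II had all 4 subunits measured, each by 1 probe, and they differed from one another. Sdhb, the iron-sulphur subunit, had -0.33, -1.04, -0.29 and -0.65. Sdhc, a membrane anchor that binds ubiquinone, had -0.57, -0.72, -0.53 and -0.41. Both genes were below 0 on every array and in both orientations, with means of -0.58 ± 0.35 and -0.55 ± 0.13 (SD, n = 4 arrays). Neither passed limma's test (adjusted p = 0.512 and 0.494), and their intervals reached 0.18 and 0.14. Sdhd, the other membrane anchor, had 0.39, 3.69, -0.94 and 2.73. Arrays 2 and 4, of opposite dye orientation, were high and array 3 was low, so the mean of 1.47 ± 2.12 (adjusted p = 0.533) has an SD above its size. With 1 array left out, the fitted mean of Sdhd ran from 0.55 (without array 4) to 2.38 (without array 3). Sdha, the flavin-binding catalytic subunit, had 0.52 and 1.90 on the Cy5 arrays and -1.51 and -0.40 on the Cy3 arrays, with a mean of 0.13. The median of the complex, -0.21, summarises subunits on both sides of 0. In the first 6000 rows, which hold Sdhb and Sdhd, it was 0.45 over those 2 genes.

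Complex III had all 8 named subunits measured, with a median of 0.038. Uqcrfs1, the Rieske iron-sulphur protein that accepts electrons from ubiquinol, had 0.20, 1.16, 0.89 and 0.51, with a mean of 0.69 ± 0.42 (SD, n = 4 arrays; limma, adjusted p = 0.48). Uqcrc1, a large core protein on the matrix side, had 0.15, 0.51, 0.33 and 0.77, with a mean of 0.44 ± 0.27 (adjusted p = 0.58). Both were above 0 on every array, and both intervals included 0. Its partner core protein Uqcrc2 had 0.046, -0.29, 0.10 and -1.44, the lowest mean of the complex at -0.40, and without array 4 the fitted mean was -0.011. Cyc1, cytochrome c1, could not be read as a single value. The probe with values on all 4 arrays was below 0 throughout (-0.63, -0.74, -0.32 and -0.23), while another, with values on arrays 1 and 3 alone, had -1.48 and 3.64. The small subunits Uqcrq, Uqcrh, Uqcr10 and Uqcr11 had means from -0.088 to 0.12, and all were lowest on array 4.

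Complex IV, cytochrome c oxidase, had 11 measured subunits of 16 named, with a median of -0.071. Cox4i1, the ubiquitous form of a nuclear-encoded subunit, was the 1 gene of this complex below 0 on every array, with -0.22, -0.92, -0.47 and -0.80. Its mean was -0.60 ± 0.32 (SD, n = 4 arrays), with an interval from -1.36 to 0.16 (limma, adjusted p = 0.496). It was measured by 3 probes, with means of -0.48, -0.90 and -0.42, and 11 of their 12 values were below 0. No other gene of the complex was below 0 on every array, and none was above 0 on every array.

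Isoform pairs of complex IV allowed a comparison of forms that are used in different tissues. Ratios hold no level, so whether each form was expressed above background in these cells could not be checked. Cox7a1, the form typical of heart and skeletal muscle, had 1.09, 0.81, 0.87 and -0.19, and Cox7a2, the form of most other tissues, had 0.26, 1.14, 0.83 and -0.55. Both were above 0 on arrays 1 to 3 and below 0 on array 4, with means of 0.64 ± 0.57 and 0.42 ± 0.74. Cox6b2, known mainly from testis, had 0.70, -2.12, -0.78 and -1.60 with a mean of -0.95 ± 1.23, and the ubiquitous Cox6b1 had -0.22, 0.25, -0.21 and -0.93 with a mean of -0.28 ± 0.49. Values of both forms overlapped in these pairs. With 1 array left out, the fitted mean of Cox6b2, the lowest of the 69 genes, ran from -1.66 (without array 1) to -0.24 (without array 2). Cox6a2, the muscle form of another subunit, was below 0 on the 3 arrays that measured it (-1.27, -2.89 and -1.12 on arrays 1, 3 and 4), while the ubiquitous Cox6a1 had 0.39, 0.22, -0.19 and -0.71 with a mean of -0.071, so the values of this pair did not overlap. In a fit that allowed 3 arrays, Cox6a2 had a fitted mean of -1.64. Cox8c, with 0.41, 0.50 and -4.27 on arrays 1, 2 and 4, had a fitted mean of -1.91, which rests on array 4. For each of these genes 1 array stood alone in its dye orientation. That array counted as much as both others together and had no measured spread. Cox8b had mixed signs, Cox7b2 had 1 value and Cox8a had none.

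ATP synthase had all 15 named subunits measured, with a median of 0.12 that was 0.198 above that of all genes. Atp5b, the catalytic beta subunit, had 0.070, 0.060, 0.41 and 0.35. All 4 values were above 0 and small, with a mean of 0.22 ± 0.18 (SD, n = 4 arrays) and an interval from -0.47 to 0.91. Atp5a1, the alpha subunit of the same catalytic head, had a mean of -0.004 and mixed signs. Atp5c1, of the rotating stalk, had 0.43, 0.37, -0.25 and 0.21, and Atp5g3, which encodes the proton-carrying ring, had a mean of 0.12.

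Atp5h and Atp5o had the lowest means of the complex, and Atp5mpl had nearly the same mean as Atp5o, at -0.553. Atp5h had -0.082, -0.36, -1.08 and -0.85, below 0 on every array, with a mean of -0.59 ± 0.45 (adjusted p = 0.487). Its 3 probes disagreed, with means of -1.18, 0.19 and -0.79. With the median of probes its array 1 value was 0.486, so the single sign was lost, and its fitted mean was -0.309. In the first 6000 rows, where 1 probe stands alone, its mean was -1.18 (limma, unadjusted p = 0.0162, adjusted p = 0.332). Atp5o had a mean of -0.55, and its 2 probes (-0.46 and -0.65) had 7 of 8 values below 0. At the other end, Atp5md, a small subunit of the membrane part, had 0.99, 2.09, 3.98 and -1.12, a mean of 1.49 ± 2.13 (adjusted p = 0.541). Array 4 opposed the other 3, and without it the fitted mean was 2.76, in which array 3 counted as much as arrays 1 and 2 together. Without array 3, which had the highest value, the fitted mean was 0.21, so the size of the mean depends on both arrays.

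**Figure D3:**
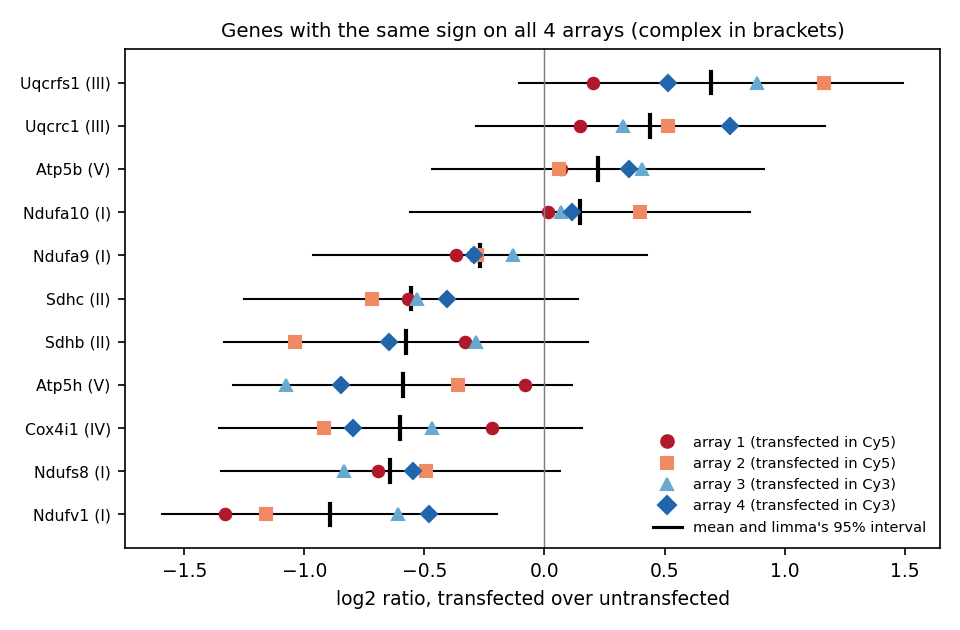
Log2 ratios (horizontal axis) of the 11 genes with a single sign on all 4 arrays (rows, complex in brackets): coloured points are arrays, black bars the mean and its 95% interval from limma. The interval of Ndufv1 alone stays on 1 side of 0, and the genes were chosen for their sign, which fixes the side on which points lie. Ndufa9, Ndufa10 and Atp5b lose the single sign when arrays are centred, and Atp5h loses it when the median of its probes is taken.

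Array 4 stood apart for many of these genes. It gave the lowest of the 4 values for 35 of the 69 genes (50.7%, against 26.5% of all genes), among them 13 of 28 in complex I, 5 of 8 in complex III, 9 of 11 in complex IV and 8 of 15 in ATP synthase, but 0 of 4 in complex II. On array 4, 20 genes (29.0%) were below -1, against 16.6% of all genes. On arrays 1, 2 and 3 the genes below -1 numbered 2, 5 and 5 (2.90%, 7.25% and 7.25%), against 8.00%, 16.0% and 21.7% of all genes, so the share was under the background there and above it on array 4. The 20 genes included Ndufa6 (-2.35), Cox6c (-2.06), Atp5k (-1.73) and Atp5mpl (-2.95, with 1 of its 3 probes at -5.54). The 2 genes above 1 on array 4 were Sdhd (2.73) and Ndufb10 (1.20). On arrays 1 to 3 alone, 22 genes were above 0 throughout (31.9%, against 16.9% of all genes) and 7 below 0 throughout (10.1%, against 17.8%). Of those 22 genes, 18 were below 0 on array 4 (26.1% of the 69, against 7.33% of all genes). Of the 7 genes below 0 on arrays 1 to 3, 0 were above 0 on array 4 (0.00% of the 69, against 4.87% of all genes). Over all genes, 308 of the 1129 below 0 on arrays 1 to 3 were above 0 on array 4. In 7 genes 1 array stood far from the other 3 (10.1%, background 6.69%), and in 6 of them it was array 4 at the low end (8.70%, background 0.917%).

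Over the 69 genes the median was 0.23 and 0.24 on arrays 1 and 2, and 0.069 and -0.48 on arrays 3 and 4, which share the other dye orientation. The part of dye orientation in this pattern was not tested. Genes of the cytosolic ribosome, a set looked at after this pattern was seen, had medians of 0.47, 0.21, 0.13 and -0.52 on arrays 1 to 4, and 35 of 50 (70.0%) were lowest on array 4. The 48 measured genes of the mitochondrial ribosome had medians from -0.082 to 0.003 on the 4 arrays, and 10 (20.8%) were lowest on array 4. The part of array 4 in the results of single genes is given beside them, and a cause of its low values was not tested. Without array 4 the median of the 69 fitted means was 0.15, with a distance of 0.216 to the median of all genes. Without array 3 it was -0.20, with a distance of -0.103. These fits kept the dye term, so array 3 or array 4, left alone in its orientation, counted as much as both others together. The values are therefore not plain medians of the arrays left, and the part of that weight in the gap between them was not tested.

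**Figure D4:**
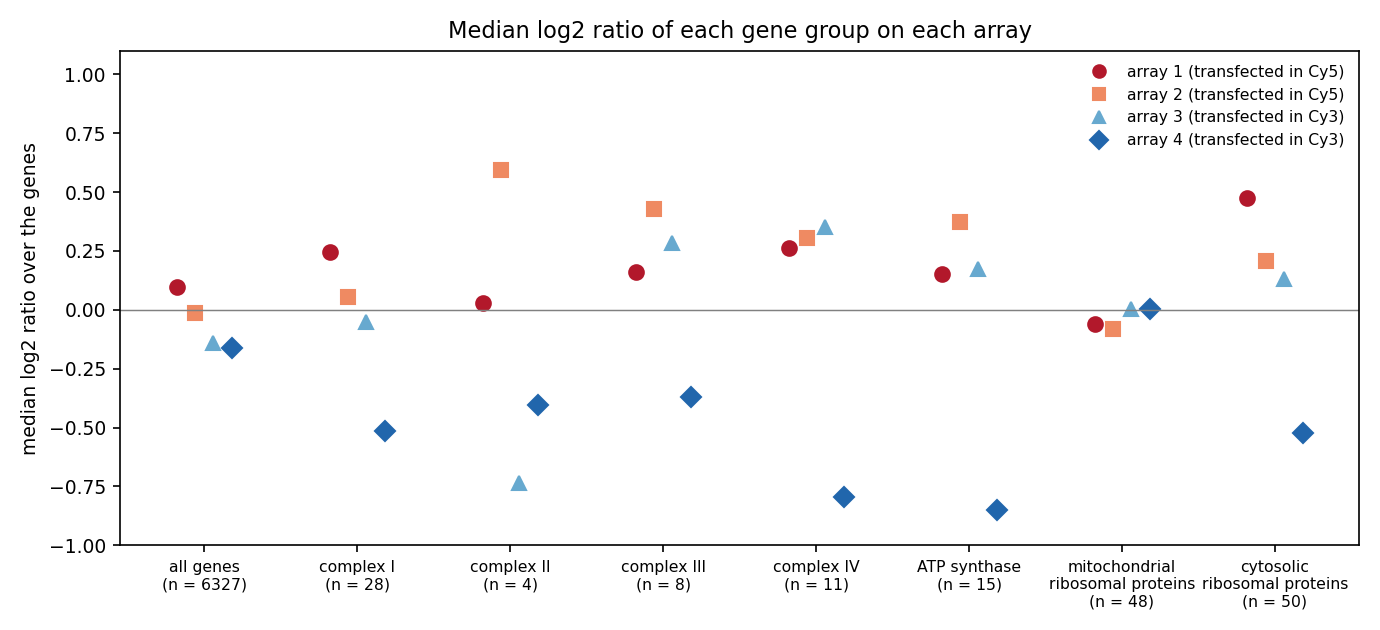
Median log2 ratio (vertical axis) of each gene group (horizontal axis, with the number of genes) on each of 4 arrays. Array 4 (dark blue diamonds) is at -0.80 for complex IV and -0.85 for ATP synthase, where arrays 1 to 3 lie between 0.15 and 0.37, and at 0.003 for the mitochondrial ribosome.

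Across the 69 genes, which are not independent replicates, the arrays agreed weakly. Pearson's r between 2 arrays ran from -0.118 (arrays 1 and 4) to 0.288 (arrays 2 and 3), where all genes gave 0.123 to 0.202, and all points share the 4 hybridisations. Probes offered a second view: 17 genes had at least 2 probes with values on every array, and the means of a gene's probes lay 0.295 apart in the median and at most 1.36 apart (Atp5h). For 8 of the 17 genes the probe means differed in sign. The median size of the mean over the 69 genes was 0.276, so probes of the same gene lay about as far apart as a typical mean lay from 0.

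Genes of neighbouring mitochondrial pathways were counted in the same fit, where 0 passed after adjustment over all genes. Their counts at an unadjusted p under 0.05 are to be read against 7.49% lower and 4.05% higher over all genes. Counts of means below or above 0 are to be read against 3550 below and 2777 above among all 6327 genes. Of further assembly factors, cytochrome c and coenzyme Q synthesis genes, 13 of 42 listed were measured, with a median of -0.35. There, 11 means were below 0, and 1 gene was lower at an unadjusted p under 0.05: Bcs1l, which inserts the Rieske protein into complex III, with a mean of -1.29 ± 0.22 (limma, adjusted p = 0.303). Its values were -1.03, -1.31, -1.57 and -1.25, all far below 0. Uqcrfs1, the Rieske protein itself, was above 0 on every array but did not pass either (limma, adjusted p = 0.48). With all rows as deposited the fitted mean of Uqcrfs1 was -0.193. A link between both genes was not tested.

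The tricarboxylic acid cycle and pyruvate dehydrogenase list had 13 of 24 genes measured and a median of -0.14. Lower at an unadjusted p under 0.05 were 3 genes and higher 0. They were Idh3g, a subunit of isocitrate dehydrogenase (-1.21 ± 0.36), Pcx, pyruvate carboxylase (-0.94 ± 0.23), and Pdhb, of pyruvate dehydrogenase (-0.85 ± 0.81). Fatty acid oxidation genes had a median of -0.59 (10 of 19), with Hadha (-2.51 ± 2.12) and Acaa2 (-2.12 ± 1.96) lower at that level. Mitochondrial carriers had a median of -0.29 (19 of 26), with 3 lower: the aspartate-glutamate carriers Slc25a12 (-1.0 ± 0.41) and Slc25a13 (-2.59 ± 2.0), and Slc25a30 (-0.92 ± 0.60).

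Import and inner membrane genes lay on the other side, with a median of 0.25 (20 of 24), 14 means above 0 and 2 genes higher at an unadjusted p under 0.05. These were Chchd3, which shapes the cristae that hold the respiratory chain (1.05 ± 0.20, above 0 on every array), and the chaperonin gene Hspe1 (1.09 ± 0.88). The mitochondrial ribosome had a median of 0.056 (48 of 64), with Mrpl12 (0.79 ± 0.24), Mrpl38 (0.82 ± 0.38) and Mrpl48 (1.16 ± 1.13) higher and Mrps23 (-0.75 ± 0.18) lower at that level. Regulators of mitochondrial biogenesis had a median of -0.032 (10 of 20) and 0 genes at an unadjusted p under 0.05. Glycolysis and lactate genes had a median of 0.11 (11 of 20), with Pfkp (-1.72 ± 0.92), Aldoa (-0.95 ± 0.42) and Ldhb (-0.90 ± 0.54) lower. Of the 13 subunits encoded by mitochondrial DNA, 0 were measured on all arrays under their listed symbols.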

How the data were processed

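The authors deposited 1 log2 ratio per spot and array, which includes an unknown constant of each array. The unit was read from the values. How images were analysed, corrected for background and normalized is not stated in the sources used here. RNA was labelled indirectly with the dyes, per the labels' protocols. Ratios beyond 15 in size, which were 1 repeated value on each array, were set to missing (63, 120, 121 and 114 on arrays 1 to 4). Rows 1 to 6000 were used as deposited. For probe rows 8001 to 18000, arrays 2 to 4 were read 3 rows higher, from 18301 on 4 rows higher, and 2300 rows were dropped. Across probes, array 1 then correlated with the others at a mean r of 0.085 (middle) and 0.134 (last part), against -0.004 and -0.009 without the offset.

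Of 20355 rows, 14030 had 1 gene symbol, 5 several and 6320 none, and 13994 matched a RefSeq gene (GRCm38.p6). Values of a gene's probes were averaged within each array, so for a gene with several probes a missing value can make arrays rest on different probes, as for Cyc1, Atp5mpl, Atp5a1, Atp5j2 and Ndufb8. Genes with values on all 4 arrays were fitted with limma 3.58.1 in R 4.3.3 (lmFit, eBayes), with a dye term and Benjamini-Hochberg adjustment over all genes, after the fit was tested on simulated data. Intervals are at 95%. Named genes are those at an unadjusted p under 0.05, those with a single sign on all arrays, the highest and lowest of each complex, and isoform pairs; the markers and related lists are those printed. Members and lists were chosen with earlier results of these data known. The NRF1 letters were changed to a shorter form after the counts of a longer one were seen. The number of arrays limits the precision. Alternatives were the dye term, centring, scaling, row choice, caps, probe summary, robust variances, 3 arrays and leaving out each array.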

Additional observations from a re-analysis of the deposited data

Results flagged for a closer look

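Of 75 values checked (69 genes and 6 group medians), 8 had 1 array far from the other 3 by Dixon's test, which sets the gap to the nearest value against the whole range. Chance gives such a gap in about 1 of 20 independent groups of 4, and these values are not independent. Among all genes the share was 6.69%, and 10.1% among the 69. In 6 of the 7 genes the low value was that of array 4, as in 0.917% of all genes and 8.70% of the 69. They were Atp5mpl (gap over range 0.873, array 4 at -2.95), Ndufv3 (0.856, at -1.64), Cox5a (0.836, at -0.22), Ndufs6 (0.833, at -0.22), Atp5j2 (0.832, at -1.43) and Atp5k (0.831, at -1.73). On array 4 the probes of Atp5mpl had -5.54, -1.46 and -1.86, and the probe at -5.54 had no value on array 1. Those of Ndufs6 had -0.95, 0.58 and -0.29 there, so its gap rests on the average of probes that disagree. The median of complex IV had array 4 apart as well (0.925). Ndufb10 had array 1 apart on the low side (0.851). The cause was not tested.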

How the results depend on the processing

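All alternatives were planned except the 1-sign count with an array left out, which was chosen after seeing the data. With an array left out the same genes were refitted with the dye term. The array left alone in its dye orientation then counted as much as both others together, and the gene's spread between arrays came from those others only. The same holds for a gene with 3 values in the fit that allowed 3 arrays. The count of respiratory genes at an unadjusted p under 0.05, which was 1, became 2 without the dye term (Ndufs8 joined), 3 with genes on at least 3 arrays, 2 of 20 in rows 1 to 6000 (Ndufv1 and Atp5h), 0 of 56 in the rows below and 3 of 62 with all rows as deposited; without 1 array it ran from 0 to 3, where Ndufv1 no longer passed. Genes called over the whole table (0) became 6 without the dye term, 3 with scaled arrays and 3 with the median of probes, and none of them was a respiratory gene; leaving out 1 array gave 0 each time. The count with 1 sign (11) was 5 of 20 in rows 1 to 6000 and 10 with the median of probes, where Atp5h dropped out. It was 15 to 29 on the 3 arrays left when 1 was removed, with 29 on arrays 1 to 3. The median of the 69 genes ran from -0.203 (without array 3) to 0.148 (without array 4), and its distance to all genes from -0.103 to 0.216. Without 1 array the medians ran from -0.236 to 0.143 for complex I, -0.318 to -0.059 for complex II, -0.147 to 0.298 for complex III, -0.203 to 0.302 for complex IV and -0.102 to 0.143 for complex V. In rows 1 to 6000 and in all rows as deposited, the median was 0.446 and 0.446 for complex II (2 genes) and -0.395 and -0.357 for complex III. Of 273 values of 21 named genes, 263 kept their sign. With rows as deposited it turned for Atp5b (-0.485), Cox6b1 (0.183), Cox7a2 (-0.003), Ndufa10 (-0.014), Ndufs8 (0.081), Uqcrc1 (-0.888) and Uqcrfs1 (-0.193), in rows 1 to 6000 for Ndufa10 (-0.005), without array 1 for Ndufaf3 (range over arrays left out -0.137 to 0.772) and without array 2 for Ndufaf5 (-1.029 to 0.042). Genes chosen for a single sign largely keep it by that choice. Many of the 273 values could not change sign at all. For these genes, dropping the dye term, robust variances and allowing 3 arrays return the same mean. The median of probes leaves a gene with 1 probe unchanged. Rows as deposited leave a gene with all its probes in rows 1 to 6000 unchanged. The share that kept its sign is therefore no measure of stability. The causes were not tested. No paired analysis was possible because there is a single group of arrays.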

Other observations

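Of the 10 genes without a value on every array, 7 had 3 values, 1 had 2, 1 had 1 and 1 had none. Besides those given above, Ndufa8, an accessory subunit of complex I, was above 0 on arrays 1, 2 and 4 (0.39, 0.71 and 0.63). The assembly factor Ndufaf6 lay just below 0 on the same arrays (-0.13, -0.091 and -0.10). Ndufb9, a subunit of the membrane arm, had -0.60 on array 1 and -1.02 on array 3.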
